A study of Homo sapiens with 16 samples.

Results

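The zinc finger genes of chromosome 19 were described here through the H3K27ac regions that changed next to them. The members were all GENCODE protein-coding genes on chromosome 19 whose symbol starts with ZNF, which gave 249 genes of 20046 protein-coding genes in the genome. They were compared with the other 1227 protein-coding genes of chromosome 19 and with 267 ZNF genes on other chromosomes. The histone mark H3K27ac, which is deposited on the nucleosomes of active promoters and enhancers, was profiled by ChIP-seq. The cells were LX-2, an immortal line of human hepatic stellate cells that behaves like scar-forming myofibroblasts. The cells had received vehicle (DMSO, control) or 50 µM OSMI-1 for 24 h, with 4 biological replicates in each arm. OSMI-1 blocks OGT, which attaches the sugar O-GlcNAc to nuclear and cytoplasmic proteins, and is called OGTi below. Both arms came from this single line, no genetic change is named in the labels, and the other 8 of 16 samples (input DNA and column purified chromatin) were not analysed here.

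Of the regions that differed under OGTi, 3507 had lost and 3623 had gained H3K27ac. Each region is a chromosome, a start and an end on hg38, without a signal, a fold change or a value per replicate. The comparisons below are therefore counts of genes and regions, with no test, and the spread between replicates behind a region is not known. A gene was given a region when any base of it lay within 2500 bp of the 5′ end of the gene. Of the 7130 regions, 17 met this rule at a member, and 18 members had one. The lists cannot show which cell type was grown, since they hold changed regions only. Lost regions lay at 4 of 10 stellate and myofibroblast genes (COL1A1, COL1A2, PDGFRB and TAGLN), against 2.02 percent of all protein-coding genes. The other 6 (COL3A1, ACTA2, LRAT, RGS5, DES and VIM) had no listed region, and gained regions, found at 6.39 percent of all protein-coding genes, lay at none of the 10. Neither kind lay at the 3 hepatocyte genes ALB, APOA1 and TTR.

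C2H2 zinc finger proteins bind DNA through arrays of short fingers, each of which folds around a zinc ion and contacts a few bases. Most proteins of the family on chromosome 19 also carry a KRAB domain, which recruits the corepressor TRIM28 (KAP1) and through it the histone methyltransferase SETDB1. Many silence transposable elements. The genes arose by tandem duplication and stand in clusters, in which the finger exons are often covered by the repressive mark H3K9me3 while the promoters are CpG-rich and active in many tissues.

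Promoter sequences from RefSeq are shown first. The motif counts further below used windows at the GENCODE 5′ end of each gene, which can differ from these. The RefSeq table for GRCh38.p14, which covers 250 bp before to 50 bp after a start site, held a promoter for 218 of the 249 members and for 17 of the 18 with a region. ZNF30 had no entry. Windows were searched on both strands for 10 motif words, namely GCATGCGC (NRF1), CCGGAAGT (ETS), AAGATGGCG (YY1), TGACGTCA (CRE), GGGCGGG (SP/KLF), CCAAT (NFY), TGATGCAA (ATF4-C/EBP), TGANTCA (AP-1), CATTCC (TEAD) and CACGTG (E-box). A match describes letters and does not show that a factor is bound, and the absence of a match says only that these letters are not in the window. The ETS word, the core bound by GABPA and other ETS factors, was found in the windows of 9 of the 16 members with a gained region. Its sites are given with their flanks, written 5′ to 3′ in the direction of the gene, with the word or its reverse complement ACTTCCGG in capitals. The core is the same at every site because it was searched for by exact match, and the sites are shown for their flanks and positions.
ZNF599, chr19:34773202-34773231: gcgtgggcgggACTTCCGGcgtccagtctt
ZNF829, chr19:36916283-36916312: ggccccactcaACTTCCGGccagaacacat
ZNF568, chr19:36916283-36916312: atgtgttctggCCGGAAGTtgagtggggcc
ZNF226, chr19:44165002-44165031: tagttgtaggcACTTCCGGctcgaggaagg
ZNF766, chr19:52269580-52269609: cgcctgcagacCCGGAAGTggatggcgtgg
ZNF865, chr19:55605636-55605665: gagggggcggcACTTCCGGtcgggccctcg
ZNF787, site 1, chr19:56121446-56121475: gcgtcctagacACTTCCGGaagtggctccc
ZNF787, site 2, chr19:56121442-56121471: cctagacacttCCGGAAGTggctccctcag
ZNF787, site 3, chr19:56121277-56121306: ccgggaaggtcACTTCCGGcctgggcgccc
ZNF460, chr19:57279907-57279936: tattacatcacCCGGAAGTccctgcatcct
ZNF274, site 1, chr19:58182966-58182995: ccgccccctgcACTTCCGGccctacccgcc
ZNF274, site 2, chr19:58183058-58183087: cccattccagcACTTCCGGcctgacccctg

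ZNF829 and ZNF568 are transcribed away from each other and share a single site, read on opposite strands. Sites 1 and 2 of ZNF787 overlap, and its site 3 begins at the RefSeq start site itself, as does the site of ZNF865. The site of ZNF599 began 5 bp before the start site and was the only one of these that did not lie inside the gained region of its gene, whose nearest base was 91 bp from the 5′ end.

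Whole promoter windows are given for the 4 members with a gained region whose 5′ end lay nearest to the centre of that region, with one member per region, and for ZNF93, which had a lost region. Capitals mark every motif word of the 10 that was found.
ZNF829, chr19:36916242-36916541, minus strand: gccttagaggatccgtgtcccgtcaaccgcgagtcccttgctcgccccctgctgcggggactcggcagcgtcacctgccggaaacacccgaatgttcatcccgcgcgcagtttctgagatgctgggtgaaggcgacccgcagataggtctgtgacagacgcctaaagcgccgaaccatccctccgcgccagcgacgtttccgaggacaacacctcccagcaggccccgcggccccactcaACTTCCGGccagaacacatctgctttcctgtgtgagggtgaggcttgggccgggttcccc
ZNF791, chr19:12610670-12610969, plus strand: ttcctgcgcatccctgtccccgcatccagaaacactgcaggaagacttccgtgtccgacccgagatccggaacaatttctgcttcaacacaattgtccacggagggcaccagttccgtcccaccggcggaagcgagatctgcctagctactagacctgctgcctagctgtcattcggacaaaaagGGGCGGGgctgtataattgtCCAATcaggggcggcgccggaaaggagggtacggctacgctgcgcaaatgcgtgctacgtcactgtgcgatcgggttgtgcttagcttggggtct
ZNF865, chr19:55605397-55605696, plus strand: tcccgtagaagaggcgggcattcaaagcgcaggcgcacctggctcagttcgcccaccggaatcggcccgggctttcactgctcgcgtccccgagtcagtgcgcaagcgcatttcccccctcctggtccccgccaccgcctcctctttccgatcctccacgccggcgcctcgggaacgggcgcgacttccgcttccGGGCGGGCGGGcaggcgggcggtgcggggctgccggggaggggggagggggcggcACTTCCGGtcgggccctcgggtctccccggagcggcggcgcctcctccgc
ZNF497, chr19:58362702-58363001, minus strand: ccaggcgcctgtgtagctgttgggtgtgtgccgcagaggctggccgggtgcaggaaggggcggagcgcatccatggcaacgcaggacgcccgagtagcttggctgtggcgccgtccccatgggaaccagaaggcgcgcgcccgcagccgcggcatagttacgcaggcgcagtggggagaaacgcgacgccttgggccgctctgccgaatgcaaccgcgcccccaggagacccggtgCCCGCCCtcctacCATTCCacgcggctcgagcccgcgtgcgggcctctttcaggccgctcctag
ZNF93, chr19:19900696-19900995, plus strand: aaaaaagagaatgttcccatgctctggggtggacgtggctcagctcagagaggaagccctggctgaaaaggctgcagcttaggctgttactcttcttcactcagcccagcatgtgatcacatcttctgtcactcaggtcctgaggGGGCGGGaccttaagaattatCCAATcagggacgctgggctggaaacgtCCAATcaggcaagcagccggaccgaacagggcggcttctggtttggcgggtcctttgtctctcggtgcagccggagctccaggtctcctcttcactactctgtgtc

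The window of ZNF829 held the ETS word alone, at position -10 from the start site. The window of ZNF791 held an SP/KLF word at position -65 and an NFY word at position -45. ZNF865 had the most GC-rich of these windows, at 74.7%, with overlapping SP/KLF words at positions -55 and -51 and the ETS word at position 1. The window of ZNF497 held an SP/KLF word at position -14 and a TEAD word at position -1. Its GENCODE 5′ end lies 97 bp away, and the window there held none of the words. ZNF497 is therefore not among the SP/KLF and TEAD counts given below. ZNF93, by contrast, had the lowest CpG observed/expected ratio of the 5 windows, at 0.426, with an SP/KLF word at position -105 and NFY words at positions -84 and -56. The gained regions of ZNF791, ZNF865 and ZNF497 and the lost region of ZNF93 covered all 300 bases of the window, and the gained region of ZNF829 covered 267 of them.

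To describe how OGTi changed H3K27ac at these genes, members with a lost and with a gained region were counted. Gained regions lay at 16 members, or 6.43% (Wilson 95% interval 3.99 to 10.2), and lost regions at 2 members, or 0.803% (0.221 to 2.88). The background over all protein-coding genes was 6.39 percent for gained and 2.02 percent for lost regions. The gained share of the members was thus at the background, and the interval of the lost share included the background. Intervals cover counting error only, and neighbouring genes that share a region are not independent. A region of either kind lay at 18 members, against a background of 8.41 percent of all genes, and no member had both kinds. The other protein-coding genes of chromosome 19 had a gained region in 84 cases (6.85%) and a lost region in 26 (2.12%), and the ZNF genes elsewhere in 17 (6.37%) and 3 (1.12%). Among genes with either kind, the gained kind made up 88.9% of 18 members (67.2 to 96.9), 76.4% of the other genes of chromosome 19, 85% of the ZNF genes elsewhere and 76.0% of all protein-coding genes.

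**Figure D1:**
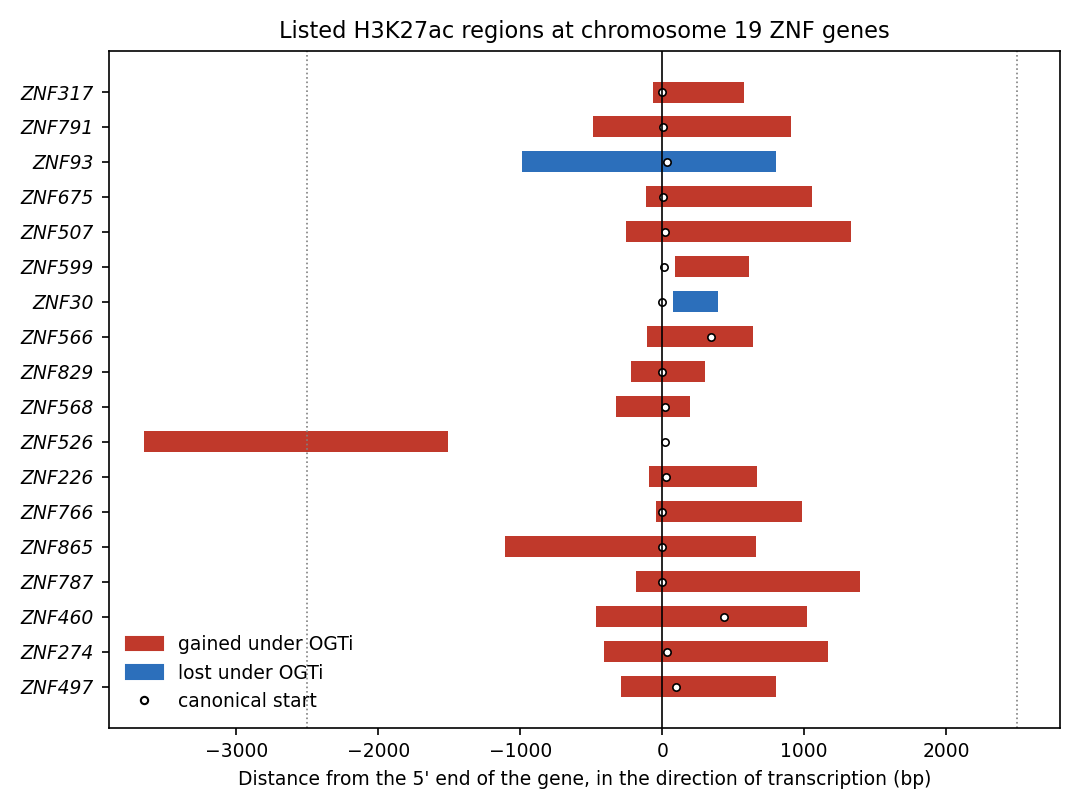
Position of the listed H3K27ac region at each of the 18 members, in chromosome order, as distance in bp from the 5′ end of the gene in the direction of transcription (bars: red gained, blue lost; circles: start of the canonical transcript; dotted lines: the 2500 bp limit). All regions but those of ZNF599, ZNF30 and ZNF526 cover the 5′ end, and most bars reach further into the gene than before it.

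The gained regions were narrow and mostly sat over the first exon. Their median width was 1171 bp over 15 regions (quartiles 755 and 1583.5 bp), against 1556 bp over the 1108 gained regions at the 5′ ends of protein-coding genes that are no members, 1448.5 bp at the other genes of chromosome 19 and 1314.5 bp at ZNF genes elsewhere. The 5′ end lay inside the region in 14 of 16 members (87.5%), as in 15 of 17 ZNF genes elsewhere (88.2%), against 60 of 84 other genes of chromosome 19 (71.4%) and 78.7% of all protein-coding genes that are no members. The centre of the region lay a median of 270.25 bp downstream of the 5′ end and was downstream in 13 of the 16, where ZNF genes elsewhere had 16 of 17, the other genes of chromosome 19 had 55 of 84 and all genes that are no members 893 of 1265. No member and none of the 17 ZNF genes elsewhere had more than a single gained region at its 5′ end, while 3 of the 84 and 93 of the 1265 had several. The authors binned the peaks, so abutting regions, as in the lost list at COL1A1 and TAGLN, can be parts of a single peak. Widths and counts of several regions therefore depend on the binning too.

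On the short arm, away from the centromere, 2 members had a gained region. The region at ZNF317 was 643 bp wide (chr19:9140331-9140973), reached 66 bp upstream and 576 bp downstream of the 5′ end and covered exon 1 of 7. ZNF791 had a region of 1395 bp (chr19:12610428-12611822) that covered exon 1 of 4. That region also covered the canonical start of ZNF490, a member on the opposite strand at position 12610813, whose annotated 5′ end lies 28276 bp away, so ZNF490 was not counted by its 5′ end. Both ZNF317 and ZNF791 encode KRAB proteins, with 13 and 17 fingers by the pattern used.

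In the large cluster next to the centromere, from ZNF101 to ZNF254, a single member gained and a single member lost H3K27ac. ZNF675, known as an inhibitor of TRAF6 signalling, had a gained region of 1171 bp (chr19:23686168-23687338) whose centre lay 467 bp inside the gene. ZNF93, a KRAB protein with 16 fingers known for silencing LINE-1 retrotransposons, had a lost region of 1784 bp (chr19:19899927-19901710) that extended 986 bp upstream and 797 bp downstream of its 5′ end. The promoters of both were poor in CpG for this family, with observed/expected ratios of 0.455 at ZNF675 and 0.471 at ZNF93.

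On the long arm, ZNF507, which has no KRAB domain, had a gained region of 1590 bp over exon 1 (chr19:32345336-32346925). It also had a gained region of 2014 bp in its gene body, 26439 bp from the 5′ end (chr19:32372033-32374046). ZNF599 and ZNF30 stand in the same cluster of 5 genes and went opposite ways. The gained region of ZNF599 was 520 bp wide (chr19:34772619-34773138) and began 91 bp downstream of the 5′ end. The lost region of ZNF30 was the narrowest at a member, at 312 bp (chr19:34926981-34927292), and began 78 bp downstream. Both overlapped exon 1. The 5′ end of the lncRNA gene ZNF30-AS1 lies 75 bp from that of ZNF30 on the other strand.

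The cluster from ZNF146 to ZNF573 held 3 members with a gained region. ZNF566 had a region of 751 bp over exon 1 (chr19:36489263-36490013), with the lncRNA ZNF566-AS1 starting 253 bp away on the other strand. ZNF829 and ZNF568, whose 5′ ends are 25 bp apart, shared a region of 520 bp (chr19:36915989-36916508). It reached 302 bp into ZNF829 and 192 bp into ZNF568, the gene whose mouse counterpart silences a placental transcript of Igf2. At ZNF526, which lacks a KRAB domain, the gained region of 2146 bp (chr19:42216638-42218783) lay 1509 bp upstream of the 5′ end and overlapped no exon of the gene. It was within 2500 bp of the 5′ end of DEDD2, a gene on the other strand that starts 152 bp from ZNF526.

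The remaining members with a gained region lay towards the telomere of the long arm. ZNF226 had a region of 759 bp (chr19:44164979-44165737) and a lncRNA, ENSG00000287035, that starts 118 bp away on the other strand. ZNF766 had a region of 1033 bp (chr19:52269541-52270573) that reached 986 bp into the gene and only 46 bp before it. ZNF865 and ZNF787, both without a KRAB domain, had regions of 1766 bp (chr19:55604541-55606306) and 1584 bp (chr19:56119900-56121483). The region at ZNF865 extended further upstream (1106 bp) than downstream (659 bp), unlike the region at ZNF787, which reached 1395 bp into the gene.

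Last in chromosome order came ZNF460, ZNF274 and ZNF497. ZNF460 had a region of 1484 bp (chr19:57279586-57281069) that also covered its canonical start, 434 bp from its 5′ end. ZNF274, a KRAB protein that itself binds the finger exons of ZNF genes and recruits SETDB1 there, had a region of 1583 bp (chr19:58182615-58184197) and was the only member whose region overlapped exons 1 and 2. It had 5 fingers, the fewest of the 16. ZNF497, without a KRAB domain, had a region of 1091 bp (chr19:58362051-58363141). The lncRNAs ZNF460-AS1 and ZNF497-AS1 start 283 and 279 bp from their partners on the other strand.

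An opposite-strand 5′ end of any gene within 1000 bp was annotated for 7 of the 16 members with a gained region (43.75%), against 48 of the 231 without a listed region (20.8%). For protein-coding partners the counts were 3 of 16 and 16 of 231 (6.93%). The pair ZNF829 and ZNF568 enters both of these counts as 2 genes. ZNF791 is not among the 7, although its region covers the canonical start of ZNF490 on the other strand. Opposite-strand 5′ ends were not counted for genes outside the members, so whether the difference is particular to them was not tested.

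The window of 2500 bp decided few members. The member just inside the limit was ZNF526 for gained regions, at 1509 bp, and the member just outside was ZNF524, at 4519 bp. For lost regions these were ZNF30, at 78 bp, and ZNF628, at 9348 bp.

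**Figure D2:**
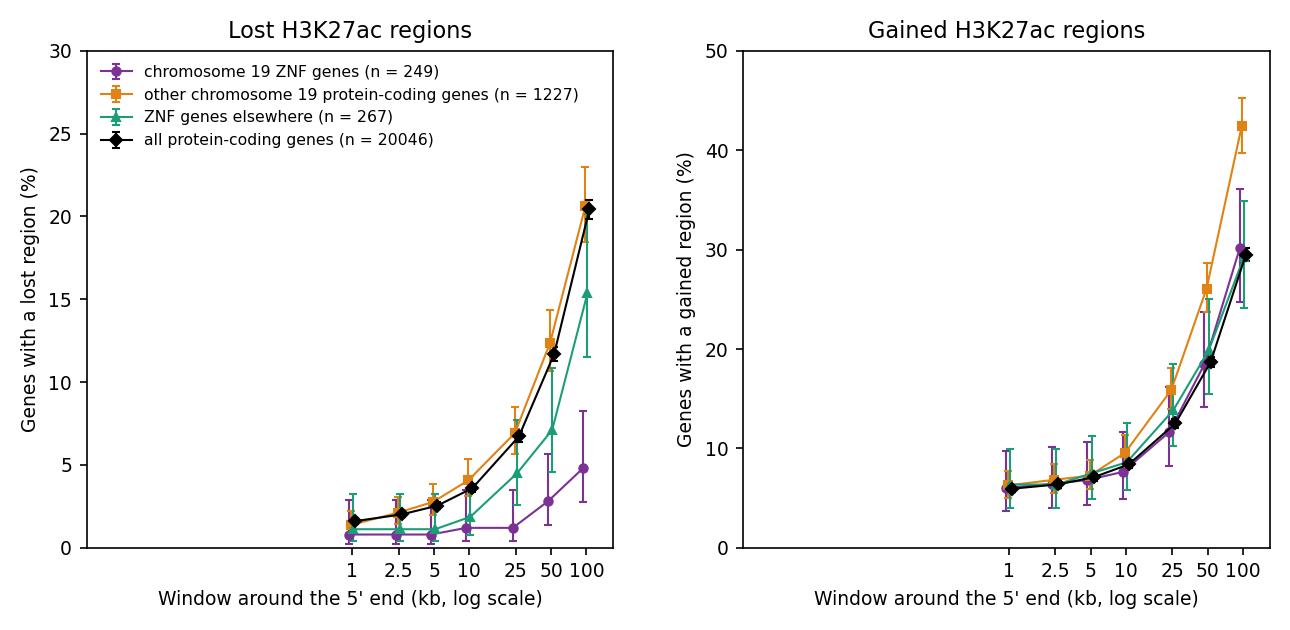
Share of genes (%) with a lost (left) or gained (right) region within a window around the 5′ end, against the window in kb on a log axis, for the 4 gene groups with Wilson 95% intervals (points are shifted slightly in x). The lost share of chromosome 19 ZNF genes stays below those of the other groups at every window, and reaches 4.82% at 100 kb against 20.4% of all protein-coding genes.

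To ask whether changed regions lay further out, the window was widened. Lost regions stayed sparse around the members. They lay at 2 members within 1000 bp and within 5000 bp (0.803%), where the background was 1.61 and 2.54 percent, and at 3 members within 10000 bp and within 25000 bp (1.2%), where it was 3.6 and 6.72 percent. Within 50000 bp, 7 members had a lost region (2.81%, 1.37 to 5.69), against a background of 11.7 percent, 12.4% of the other genes of chromosome 19 and 7.12% of ZNF genes elsewhere. Within 100000 bp there were 12 (4.82%, 2.78 to 8.23), against a background of 20.4 percent and against 20.6% and 15.4% in those groups. Gained regions followed the background at each window. They lay at 15 members within 1000 bp (6.02%, background 5.94 percent), 17 within 5000 bp (6.83%, background 7.09 percent), 19 within 10000 bp (7.63%, background 8.4 percent) and 29 within 25000 bp (11.6%, background 12.5 percent). Within 50000 bp, 46 members had one (18.5%, 14.1 to 23.8), against a background of 18.7 percent, and within 100000 bp there were 75 (30.1%, 24.8 to 36.1), against a background of 29.5 percent. The other genes of chromosome 19 had more, with 26.1% at 50000 bp and 42.5% at 100000 bp.

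The distance to the nearest region gave the same order of groups for lost regions. The median member was 735 kb from a lost region (quartiles 400 and 1495 kb) and 191 kb from a gained one (83.1 and 423 kb). The corresponding medians were 309 and 124 kb for the other genes of chromosome 19, 392.3 and 310 kb for ZNF genes elsewhere, and 360 and 235 kb for all protein-coding genes. At wide windows many genes of a cluster have the same nearest region, so these medians rest on far fewer regions than genes.

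Members also held few changed regions inside their bodies. A gained region centred in the gene and more than 2500 bp from the 5′ end was found in 4 members (1.61%), against a background of 5.51 percent, and a lost one in 1 member (0.402%), against a background of 5.14 percent. The median gene length was 26.1 kb for the members and 27.4 kb for all protein-coding genes, and the part of length in these shares was not tested. The other genes of chromosome 19, with a median length of 13.8 kb, had a gained body region in 2.44% and a lost one in 1.63% of cases. ZNF genes elsewhere, with a median length of 27.3 kb, had 5.24% and 2.62%. The 4 members with a gained body region were ZNF490, ZNF429, ZNF507 and ZNF432. At ZNF490 and ZNF432 the region covered the canonical start, and at ZNF429 it lay 18 bp from it, so that 3 of these 4 regions sat at an alternative start of the gene. The region at ZNF429 (chr19:21505620-21506124) was 505 bp wide and the region at ZNF432 (chr19:52048354-52049538) 1185 bp.

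The lost body region was at ZNF490 too (chr19:12579661-12581133, 1473 bp). It lay entirely within the last exon of the gene. In ZNF genes this exon usually encodes the finger array, and it overlapped a lost region in 1 of 249 members (0.402%) and a gained region in none. The last exon of all protein-coding genes with several exons overlapped a lost region in 0.613% and a gained region in 0.518% of 18916 genes. How well reads could be placed in the finger exons was not examined.

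The positions along the chromosome were then compared. Consecutive ZNF genes with 5′ ends under 500 kb apart were joined into 20 blocks, of which 10 held at least 5 genes and are called clusters. The clusters held 235 members over 14.4 Mb of the 58.6 Mb of the chromosome. Changed regions were sparser inside them, with 0.416 lost regions per Mb against 1.43 in the rest of the chromosome, and 1.32 gained regions per Mb against 2.69. Unchanged peaks were not counted, so the share of H3K27ac peaks that changed inside the clusters is not known. How well reads could be placed among these tandem duplicates was not examined, and its part in the sparser regions was not tested. Of the 19 gained regions inside clusters, 13 lay at the 5′ end of a ZNF gene and 3 at no annotated 5′ end, while 43 of the 119 gained regions in the rest of the chromosome lay at none. Of the 6 lost regions inside clusters, 2 lay at ZNF genes.

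**Figure D3:**
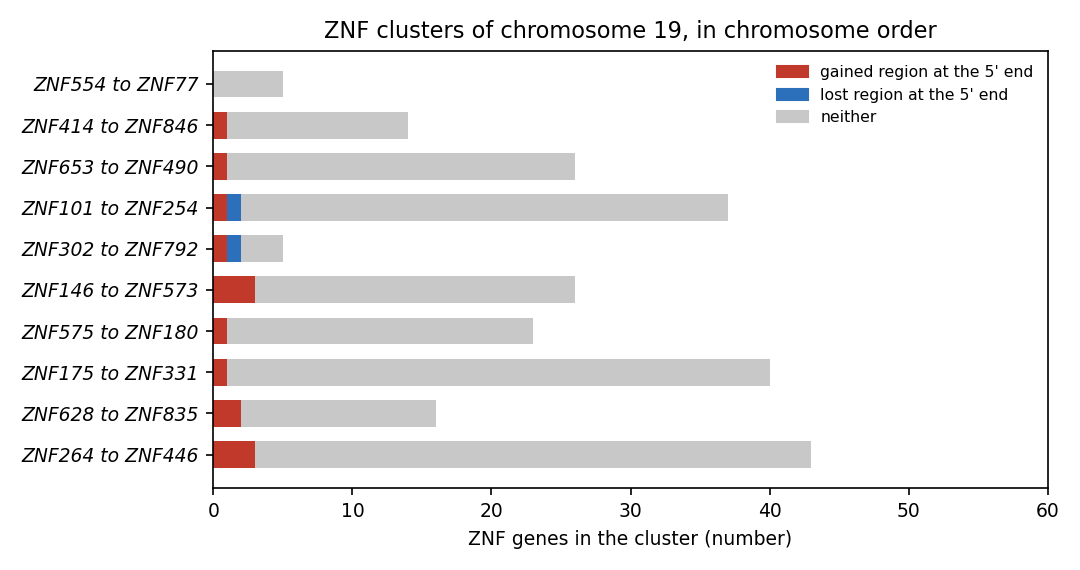
Number of ZNF genes in each of the 10 clusters, in chromosome order and named by their first and last gene, split into members with a gained region (red), a lost region (blue) or neither (grey) at the 5′ end. Gained members are spread over 9 clusters with at most 3 in each.

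Apart from ZNF829 and ZNF568, which share a region, no gained member stood next to another in chromosome order. At most 3 gained members fell in any cluster, in that of ZNF146 to ZNF573 with 26 members and in that of ZNF264 to ZNF446 with 43 members. The cluster of ZNF175 to ZNF331, with 40 members, held 1, and that of ZNF101 to ZNF254, with 37 members over 4.46 Mb, held 1 gained and 1 lost. The smallest cluster by span, from ZNF554 to ZNF77, held none. The gained regions at members lay a median of 178 kb from the next listed region of either kind, and 3 of the 15 had one within 50 kb (20.0%). At the other genes of chromosome 19 the median was 69.8 kb and the share 38.2%, and at protein-coding genes that are no members 75.6 kb and 41.3%. The smallest gap was 25.1 kb at the members and 0 kb in both of these groups. Abutting regions, which can be parts of a single peak, were thus counted as neighbours there and raise those shares.

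Within the clusters, the members and the other genes among them can be set side by side. Gained regions lay at 14 of 235 members (5.96%, 3.58 to 9.75) and at 2 of 109 other protein-coding genes (1.83%, 0.505 to 6.44). Lost regions lay at 2 members (0.851%, 0.234 to 3.05) and at 4 of the other genes (3.67%, 1.44 to 9.06). The intervals overlap in both directions. Outside the clusters, gained regions lay at 2 of 14 members, ZNF507 and ZNF526, and at 82 of 1118 other genes (7.33%).

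**Figure D4:**
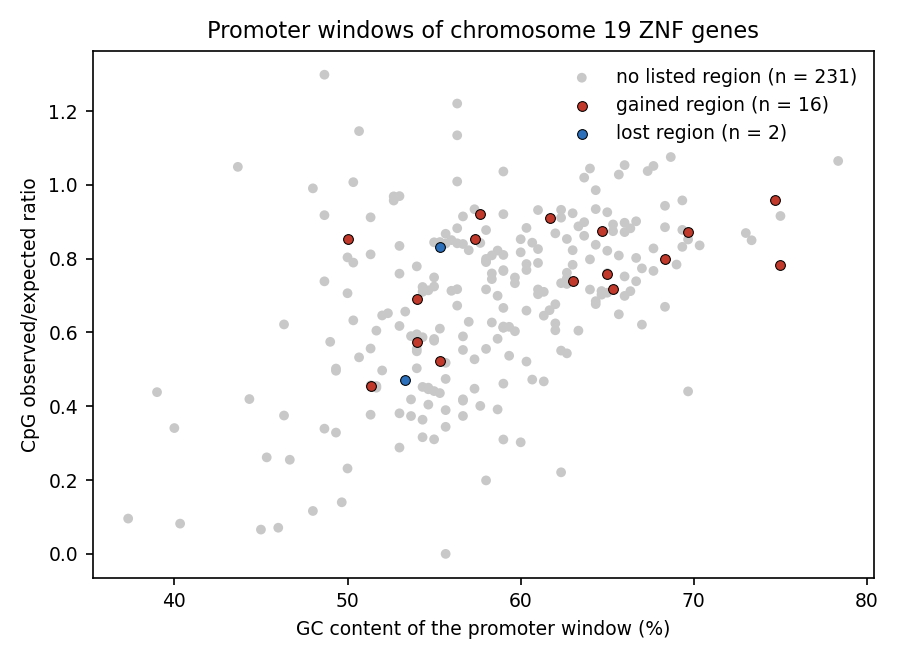
GC content (%) against CpG observed/expected ratio of the 300 bp promoter window of each of the 249 members, with those that had a gained (red) or a lost (blue) region marked. The red points lie between 50 and 75% GC and none has a ratio under 0.455, whereas the grey points extend to 0.

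Sequence features that the choice of members did not use were compared next, in windows from 250 bp before to 50 bp after the 5′ end. The median GC content was 62.3% in the 16 members with a gained region and 58% in the 231 without a listed region. The median CpG observed/expected ratio, which is high in CpG islands, was 0.791 (range 0.455 to 0.958) and 0.716 respectively. Among all protein-coding genes it was 0.855 for those with a gained region and 0.696 for all of them, so the members with a gained region did not stand above other gained promoters. By CpG ratio, gained regions lay at 0 of 29 members with a ratio under 0.4, 3 of 49 from 0.4 to 0.6 (6.12%), 5 of 81 from 0.6 to 0.8 (6.17%) and 8 of 90 above (8.89%). The same 4 classes of all protein-coding genes had 2.00, 4.24, 6.84 and 10.4%.

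**Figure D5:**
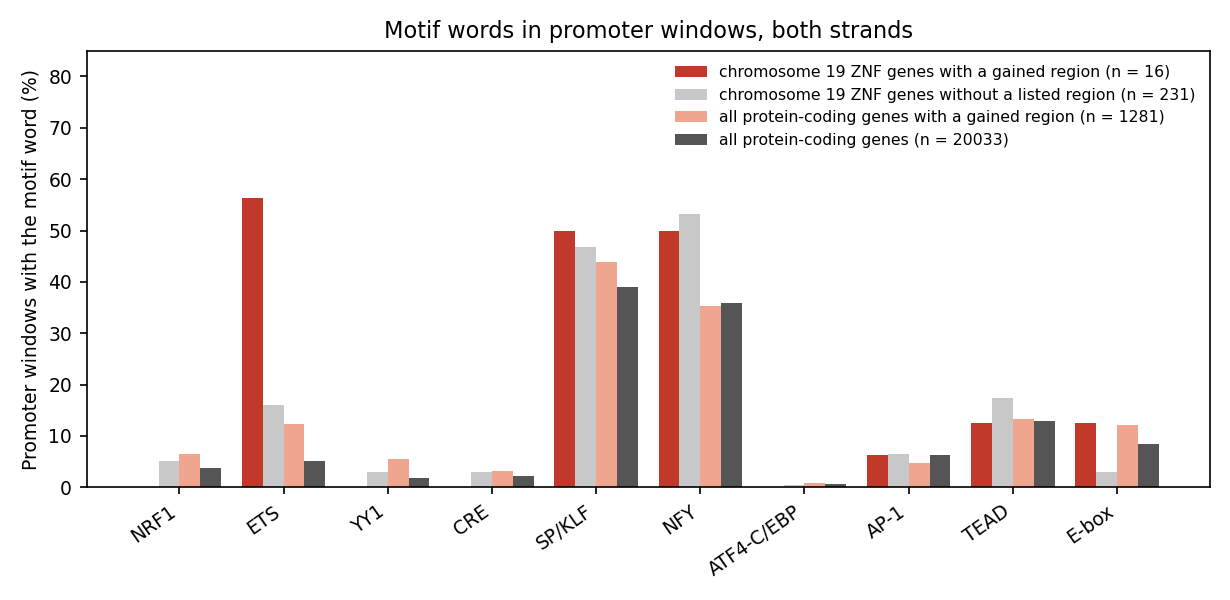
Share of promoter windows (%) that hold each of the 10 motif words on either strand, in members with a gained region (red), members without a listed region (light grey), all protein-coding genes with a gained region (pink) and all protein-coding genes (dark grey). The ETS word is found in 56.25%, 16%, 12.4% and 5.10% of these windows.

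Of the 10 words, the ETS word had the largest difference in percentage points between the members with and without a gained region. It was in 9 of 16 windows of the former (56.25%) and 37 of 231 of the latter (16%), against 5.10% of all 20033 promoter windows, 12.4% of those with a gained region and 1.28% of those with a lost region. Over all members it was in 18.5% of windows, against 4.81% of the other genes of chromosome 19 and 11.2% of ZNF genes elsewhere. At the start of the canonical transcript, 8 of 16 and 40 of 231 windows (17.3%) held it, and in the RefSeq windows 9 of 16 and 36 of 201 (17.9%). The ETS word was singled out after all 10 had been counted, and no test of it was made. The members without a listed region were not split by whether they carried H3K27ac. The word itself holds a CpG, and its share was not compared at equal CpG ratio, so the part of either in the difference was not tested. The genes with the word are ZNF599, ZNF829, ZNF568, ZNF226, ZNF766, ZNF865, ZNF787, ZNF460 and ZNF274. ZNF829 and ZNF568 share a single region and a single site but enter these counts, and those that follow, as separate genes.

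Read the other way, a gained region lay at 9 of 46 members with the ETS word (19.6%, 10.7 to 33.2) and at 7 of 203 without it (3.45%, 1.68 to 6.95). ZNF genes elsewhere had 6 of 30 (20.0%) and 11 of 237 (4.64%), and the other genes of chromosome 19 had 6 of 59 (10.2%) and 78 of 1168 (6.68%). Over all protein-coding genes the shares were 15.6% of 1022 and 5.90% of 19011. Lost regions lay at none of the 46 members with the word, and at 0.489% of all genes with it and 2.04% of those without. The higher gained share with the word was thus seen in genes outside the family too, and 37 of the 46 members with the word had no listed region.

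The other words differed by fewer percentage points between members with and without a gained region, although the ratio of the shares was larger for the E-box word, which rests on 2 windows. NFY words were in 8 of 16 and in 53.2% of windows, against 35.9% of all promoters, and SP/KLF words in 8 of 16 and 46.8%, against 38.9%. TEAD words were in 2 of 16 and 17.3%, against 12.8% of all promoters, and E-box words in 2 of 16 and 3.03%, against 8.36%. The AP-1 word was in 1 of 16 and 6.49% of windows, against 6.38% of all promoters. The NRF1, YY1, CRE and ATF4-C/EBP words were in none of the 16, where all promoters had 3.78, 1.88, 2.29 and 0.689%.

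The proteins encoded by the members were compared through their translated coding sequences. A KRAB A box pattern was found in 210 of 249 members (84.3%), in 11 of the 16 with a gained region (68.75%), in both with a lost region and in 197 of the 231 without (85.3%). Gained regions lay at 11 of 210 KRAB genes (5.24%, 2.95 to 9.13) and at 5 of 39 genes without the pattern (12.8%, 5.60 to 26.7). The intervals overlap, and both include the background of 6.39 percent. The 5 genes without the pattern are ZNF507, ZNF526, ZNF865, ZNF787 and ZNF497. The median number of C2H2 fingers was 12 both in members with a gained region (range 5 to 20) and in members without a listed region (range 0 to 36), and the longest array with a gained region was that of ZNF865.

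Finally, the partners through which KRAB proteins silence chromatin were examined in the same lists. Of 30 genes for KRAB corepressors and linked heterochromatin factors, 5 had a gained region (16.7%, against the background of 6.39 percent) and 2 a lost region (6.67%, against 2.02 percent). The gained ones were TASOR (chr3:56682130-56683308) and MPHOSPH8 (chr13:19633137-19633957), which encode subunits of the HUSH silencing complex, EHMT1 (chr9:137617996-137619542) and SUV39H1 (chrX:48696108-48697804), which encode H3K9 methyltransferases, and TRIM33 (chr1:114510315-114511927), a relative of TRIM28. The lost ones were CHD4 (chr12:6612328-6614675), the remodelling ATPase of the NuRD complex, and the DNA methyltransferase DNMT3A (chr2:25341075-25342539). The other 23 had no listed region at the 5′ end, among them SETDB1 and TRIM28, which itself lies on chromosome 19 with the nearest gained region 23.7 kb and the nearest lost region 3055 kb away. Of 18 chromosome 19 genes with other zinc finger symbols, 2 had a gained region (11.1%, against the background of 6.39 percent). These were ZFP82 (chr19:36418344-36419046) and ZFP36 (chr19:39401829-39404513). None had a lost region, against the background of 2.02 percent. ZFP36 encodes an RNA-binding protein with another kind of finger, and its region lay 2334 bp from its 5′ end.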

How the data were processed

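H3K27ac ChIP-seq libraries (4 per arm) were made and processed by the authors, who aligned reads to hg38 with Chromap. They allowed a single best mapping per read and also set a mapping quality threshold, so reads placed with low quality were left out. They called peaks per replicate against input DNA with MACS2 (version 2.1.1.20160309 per the submitters' processing notes) without duplicates and blacklisted regions, then binned and tested the peaks with MAnorm2. The 2 deposited lists give positions in base pairs in 3 columns, with no score, p-value or depth. Their names give an adjusted p threshold of 0.15, and the study's methods a stricter value. Unchanged peaks were not analysed here.

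Starts were converted to count from 1. Genes came from GENCODE release 44 on hg38 (62700 genes), a later release than the study used. Regions were given to genes within 2500 bp of the 5′ end. GC content, the CpG ratio and motif words were counted in 300 bp windows of hg38, and printed sequences came from RefSeq. Fingers (C2H2 pattern) and KRAB A boxes were sought in GENCODE coding sequences translated on hg38, in place of RefSeq proteins. Shares have Wilson 95% intervals, which cover counting only. Every member with a region at its 5′ end is named, with the members just inside and outside the window, and every corepressor or other zinc finger gene with a region. Members and gene lists were chosen with earlier results of these data known, and no test was made. Scripts (Python 3.11.15, NumPy 2.4.6) were tested on simulated regions. The 13 mitochondrial protein-coding genes count among the 405 with a lost region.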

Additional observations from a re-analysis of the deposited data

How the results depend on the processing

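Of 56 alternative counts and medians, 53 stayed within 1.5 times the reported count or within the spread of the members. The exceptions were the other chromosome 19 genes with a lost region, which went from 26 to 17 in a window of 1000 bp and to 50 in one of 10000 bp, and the ZNF genes elsewhere with a lost region, which went from 3 to 5 at 10000 bp. Members with a gained region numbered between 11, when only KRAB and C2H2 proteins were kept, and 19, with a 10000 bp window, with all transcript starts or with the canonical start. Members with a lost region numbered 2 or 3. The median CpG ratio of members with a gained region was 0.726 in a window of 1000 bp and 0.839 at the canonical start, and stayed above that of members without a listed region (0.680 and 0.761). The canonical start and the omission of the 3 readthrough genes were chosen after seeing the data. No paired analysis was possible because neither list used here gives a value per replicate, and for the same reason neither leaving out a replicate nor a stricter threshold could be run. The lists give neither the read depth nor how well reads could be placed, so a gene without a listed region may have changed without being detected.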
